A study of Mus musculus with 11 samples.

Results

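The 10 genes described here take up, carry, store, break down and export lipid in the cells of the alveolus: Pparg, Fabp1, Fabp4, Fabp5, Cd36, Lpl, Plin2, Abca1, Abcg1 and Lipa. They were taken by gene symbol from a list of names, and all 10 were found, once each, among the 31053 genes of every matrix. Their UMIs (unique molecular identifiers, 1 per captured RNA molecule) were counted by droplet-based 3′ single-cell RNA sequencing of dissociated mouse lung in 11 libraries. The groups were WT (wild type, +/+, 1 library), p21Het (p21 heterozygotes, +/-, 3 libraries), p21mTert (+/mTert, 5 libraries) and p21mTertCD (+/mTertCD, 2 libraries). The series title places mTert, the catalytic protein of telomerase, in p21-positive cells. The labels do not spell out mTertCD, which is known of the study as a catalytically inactive form. Only WT carried 2 unaltered p21 alleles by its genotype label. The age label was 18 months, apart from p21Het_1 at 19 months and p21mTert_1 at 20 months, whose titles state 18 months. No label states that libraries of a group came from separate animals, so p-values measure the spread between these samples, which may be technical. WT had 1 library and no replicate check, and its values are given as values. WT_1, p21Het_1 and p21mTert_1 were deposited first and the other 8 libraries later, so WT lies wholly in the first deposit and p21mTertCD wholly in the later one. Median mitochondrial shares were 6.33% to 6.62% in the first and 2.82% to 4.31% in the later deposit.

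Of 81983 barcodes, 65030 were kept as cells, 4506 to 7807 per library, with 33336503 to 60559266 UMIs per library. Levels are given as CPM, the UMIs of a gene per 1000000 UMIs summed over the cells of a class in a library. Cell classes were named from marker genes with the 10 genes left out, and the ending "-like" marks that. A class entered in a library with at least 20 cells. The alveolar macrophage-like class held 1291 cells, led by Ear1, Krt79 and Marco. A second class of 1281 cells, led by Chil3, Ctsk, Atp6v0d2, Gpnmb and Spp1, is called lipid-associated macrophage-like. Among its 10 leading genes 3 were markers of its own list and 2 were alveolar macrophage markers, so the boundary between both classes is not sharp. At least 20 of its cells were found in 5 libraries. In those, the 11 alveolar macrophage markers summed to 43018 to 55642 CPM in this class, and 9 interstitial macrophage markers to 35.2 to 67.6 CPM. p21Het_2 and p21mTertCD_1 stood apart from the other 9 libraries, with 6.48% and 7.19% lipid-associated macrophage-like cells against 0.0771% to 2.10%. They also had the fewest alveolar macrophage-like cells, 0.525% and 0.813% of kept cells against 1.80% to 3.06%, and the fewest B-like cells, 9.34% and 1.17%. No pair of libraries shared more than 17 cell barcodes.

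As background, surfactant lipid is made and secreted by alveolar type 2 (AT2) cells, and alveolar macrophages take up and degrade the spent part. PPARγ, the receptor encoded by Pparg, drives the differentiation and lipid program of alveolar macrophages. Fatty acids reach a cell through lipoprotein lipase (Lpl) and the scavenger receptor CD36, and fatty acid binding proteins (Fabp1, Fabp4, Fabp5) carry them in the cytoplasm. Perilipin 2 (Plin2) coats lipid droplets, and lysosomal acid lipase (Lipa) frees cholesterol and fatty acids from ingested lipid. The transporters ABCA1 and ABCG1 export cholesterol and are targets of the oxysterol receptors LXR.

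PPARγ and LXR each bind DNA with the partner RXR at a pair of AGGTCA half-sites, spaced by 1 base for PPARγ (the DR1 element) and by 4 bases for LXR (DR4). Upstream sequence is shown for the 4 genes whose windows held a DR1 or DR4 match, with the matches in capitals. Windows were the 250 bases before a RefSeq start site (build GRCm38.p6), without bases that overlap an exon, 5′ to 3′ on the gene's strand. A DR1 or DR4 match allowed up to 3 mismatches over the 12 fixed bases, on either strand, and a half-site match allowed none. RefSeq windows were matched for 6 of the 10 genes. The stretches are chr6:71199629-71199826 (Fabp1, plus strand), chr5:17835897-17836146 (Cd36, minus strand), chr4:86670061-86670309 (Plin2, minus strand) and chr4:53159896-53160145 (Abca1, minus strand).
Fabp1: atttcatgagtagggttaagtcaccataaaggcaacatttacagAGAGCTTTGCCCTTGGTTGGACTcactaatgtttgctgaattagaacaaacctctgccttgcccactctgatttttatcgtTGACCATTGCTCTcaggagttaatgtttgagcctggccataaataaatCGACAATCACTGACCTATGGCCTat
Cd36: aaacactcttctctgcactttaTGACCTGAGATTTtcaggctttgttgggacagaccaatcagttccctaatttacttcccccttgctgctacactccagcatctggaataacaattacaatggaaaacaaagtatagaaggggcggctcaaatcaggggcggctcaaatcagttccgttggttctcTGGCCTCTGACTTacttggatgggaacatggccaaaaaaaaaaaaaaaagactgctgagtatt
Plin2: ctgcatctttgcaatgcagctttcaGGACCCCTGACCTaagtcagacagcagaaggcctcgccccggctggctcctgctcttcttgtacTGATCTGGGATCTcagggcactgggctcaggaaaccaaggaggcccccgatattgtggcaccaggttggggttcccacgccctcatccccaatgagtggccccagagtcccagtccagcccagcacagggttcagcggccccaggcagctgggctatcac
Abca1: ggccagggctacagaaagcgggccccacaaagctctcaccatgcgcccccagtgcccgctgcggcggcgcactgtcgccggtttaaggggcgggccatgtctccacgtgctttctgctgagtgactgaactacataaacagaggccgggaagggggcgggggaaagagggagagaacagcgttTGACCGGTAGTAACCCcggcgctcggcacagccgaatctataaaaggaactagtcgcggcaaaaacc

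The best DR1 match, with 1 mismatch, was TGACCTATGGCCT in the Fabp1 window, 67 bases before the start site on the minus strand. Fabp1 held 3 DR1 matches and 2 DR4 matches in all, and a half-site 9 bases before the start site lies outside the printed stretch. Cd36 and Plin2 held 2 DR1 matches each, the best with 2 mismatches. The only match of Abca1 was a DR4 with 3 mismatches, 67 bases before the start site. Lipa held none. Of 3 Pparg windows, 1 held a half-site at 28 bases, 1 at 9 bases and 1 no match. Such matches are common: 21.3% of the 32841 mouse windows of 250 bases held a DR1 match, 18.5% a DR4 match and 14.0% a half-site. A match is a run of letters and was not tested for binding.

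Pparg lies on chromosome 6 (115360951 to 115490399, plus strand). Its level was 160 ± 25.3 CPM in alveolar macrophage-like cells (SD, n = 11), from 129 in p21Het_1 to 213 in p21mTertCD_2 with a median of 156. In lipid-associated macrophage-like cells it was 158 ± 11.7 (n = 5), and these values lay inside the alveolar macrophage range. Non-classical monocyte-like cells followed at 85.6 ± 20.0 (n = 11), and the SDs of this and the preceding class did not meet. Type 2 innate lymphoid (ILC2)-like cells held 53.8 ± 22.995 (n = 6), and interstitial macrophage-like cells 11.2 ± 4.39 (n = 11). AT2-like cells held 2.68 ± 1.06 CPM (n = 11). Alveolar macrophage-like cells gave 35.1% of all Pparg UMIs from 1.99% of the cells, and lipid-associated macrophage-like cells 34.8% from 1.97%.

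**Figure D1:**
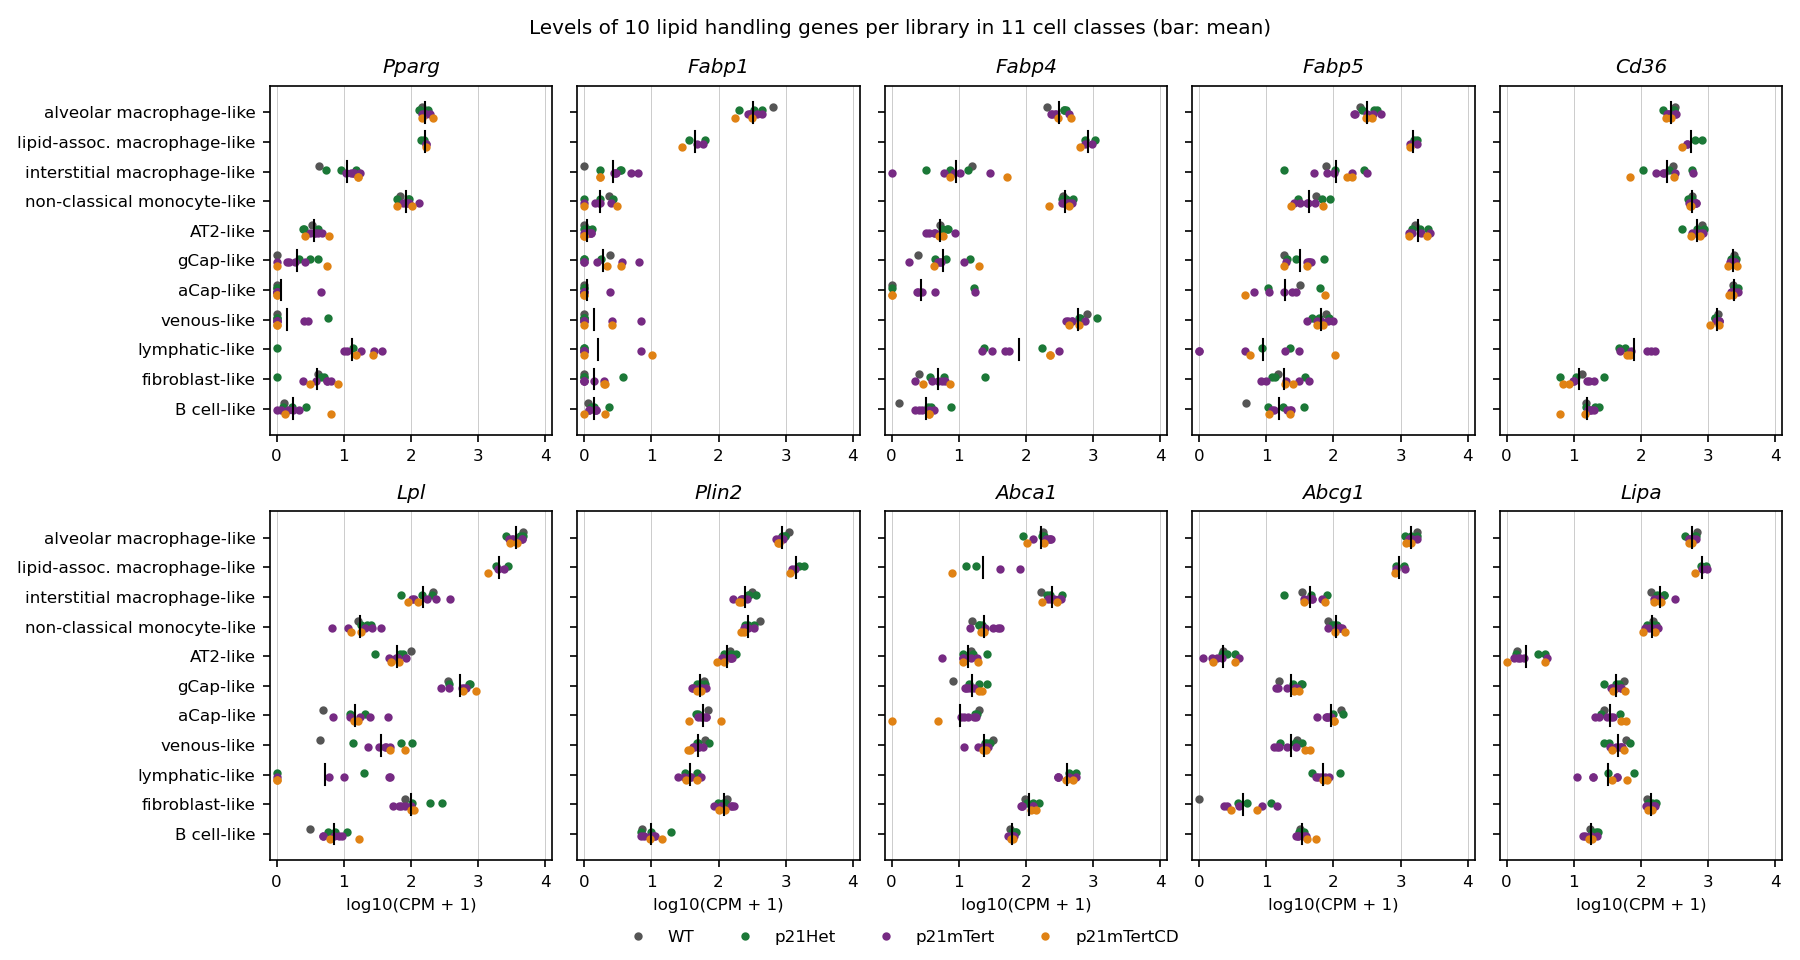
Level of each gene as log10(CPM + 1) in 11 cell classes, 1 point per library with at least 20 cells of the class, coloured by group, and a bar at the mean of the log values. Lpl, Abcg1 and Fabp1 sit highest in alveolar macrophage-like cells, Pparg in both airspace macrophage classes, Cd36 in the capillary classes and Fabp5 in AT2-like and lipid-associated macrophage-like cells.

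Lpl, the lipase that frees fatty acids from triglyceride, lies on chromosome 8 (68880491 to 68907448, plus strand). Alveolar macrophage-like cells held 3763 ± 787 CPM of Lpl (n = 11), with a lowest value of 2597 in p21Het_2, a median of 3825 and a highest of 4684 in WT. Lipid-associated macrophage-like cells held 2095 ± 532 CPM (n = 5). General capillary (gCap)-like endothelium came next at 565 ± 203 (n = 11), ranging from 276 to 938, followed by arterial-like cells at 225 ± 78.2 (n = 9). Each of the first 3 classes lay apart from the next by more than both SDs. When each cell was thinned to 1000 UMIs, 91.2% of alveolar macrophage-like cells and 35.5% of gCap-like cells still had an Lpl UMI (99.4% and 60.6% before thinning). The share in B-like cells, lymphocytes not known for Lpl, was 0.759% (2.92% before thinning). No kept cell had under 1000 UMIs, and median depths were 19033, 3225.5 and 4328 UMIs.

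Cd36, the fatty acid translocase, was highest in endothelium (chromosome 5, 17781690 to 17888801, minus strand). It stood at 2410 ± 244 CPM in aerocyte (aCap)-like cells (n = 10) and at 2366 ± 211 in gCap-like cells (n = 11), which overlapped. Venous-like cells held 1348 ± 123 (n = 11), arterial-like cells 947 ± 158 (n = 9) and AT2-like cells 693 ± 141 (n = 11). AT2-like cells, 5.86% of kept cells, gave 28.7% of all Cd36 UMIs, and gCap-like cells, 6.74% of kept cells, gave 26.4%. Median depth was 18544 UMIs per AT2-like and 3225.5 per gCap-like cell. Alveolar macrophage-like cells, at 279 ± 40.9 CPM (n = 11), lay below all of these.

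The 3 fatty acid binding proteins had 3 different places. Fabp1 (chromosome 6, 71199827 to 71205023, plus strand), known best from liver and gut, was found in alveolar macrophage-like cells at 344 ± 128 CPM (n = 11). The lowest library there was p21mTertCD_1 at 174, the median 318 and the highest WT at 635. Lipid-associated macrophage-like cells held 46.1 ± 14.5 (n = 5), and no other class exceeded a mean of 4.08 CPM. Alveolar macrophage-like cells thereby gave 83.2% of all Fabp1 UMIs. Thinned to 1000 UMIs, 23.4% of alveolar macrophage-like cells (80.0% before thinning) and 0.0623% of B-like cells (0.208%) had a Fabp1 UMI.

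Fabp4 (chromosome 3, 10204088 to 10208576, minus strand), the adipocyte and macrophage form, was highest in lipid-associated macrophage-like cells at 837 ± 172 CPM (n = 5). Venous-like endothelium followed at 616 ± 223 (n = 11), non-classical monocyte-like cells at 387 ± 76.0 (n = 11) and alveolar macrophage-like cells at 324 ± 87.9 (n = 11). The SD ranges of these neighbours overlapped. With the marker gate described below, Fabp4 was 160 CPM in 35 lipid-associated cells of 1 library. It was 471 CPM in the gated alveolar class (n = 11), which took in most of the lipid-associated macrophage-like cells. In gCap-like cells Fabp4 was low, from 0.834 to 18.8 CPM per library. Fabp5 (chromosome 3, 10012548 to 10016607, plus strand), the epidermal form, was abundant in AT2-like cells, which held 1850 ± 521 CPM (n = 11) and gave 61.5% of its UMIs. Mature dendritic cell-like cells, present in 2 libraries, held 2019 ± 179, and lipid-associated macrophage-like cells 1561 ± 182 (n = 5). Alveolar macrophage-like cells held 332 ± 101 (n = 11), apart from these 3 by more than the SDs.

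Plin2 and Lipa, the droplet coat and the lysosomal lipase, were both highest in lipid-associated and next in alveolar macrophage-like cells. A marker gate, described below, left 1 library with at least 20 lipid-associated cells, 35 in all. Both genes were lower in these than in the gated alveolar mean over 11 libraries. That gated class took in 1105 of the 1281 lipid-associated macrophage-like cells, so these values do not set 1 class against the other. Plin2 (chromosome 4, 86648386 to 86670060, minus strand) was 1445 ± 274 CPM in lipid-associated (n = 5) and 878 ± 117 in alveolar macrophage-like cells (n = 11), and then 279 ± 60.0 in non-classical monocyte-like cells (n = 11). Lipa (chromosome 19, 34492318 to 34527474, minus strand) was 823 ± 130 CPM in lipid-associated (n = 5), 579 ± 73.5 in alveolar (n = 11) and 194 ± 49.0 in interstitial macrophage-like cells (n = 11). For both genes the first 3 classes lay apart by more than the SDs. Lipa varied least among the 10 genes across the alveolar macrophage-like sums of the 11 libraries, with a coefficient of variation of 12.7%, and Fabp1 most, with 37.2%.

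The 2 exporters separated. Abcg1 (chromosome 17, 31057675 to 31117988, plus strand) was at 1461 ± 213 CPM in alveolar (n = 11) and 965 ± 173 in lipid-associated macrophage-like cells (n = 5), and the next class, non-classical monocyte-like cells, held 111 ± 21.2 (n = 11). Abca1 (chromosome 4, 53030787 to 53159895, minus strand) was highest outside the airspace, at 420 ± 103 in lymphatic-like endothelium (n = 9), 248 ± 60.6 in interstitial macrophage-like cells (n = 11) and 226 ± 82.96 in AT1-like cells (n = 6). Alveolar macrophage-like cells held 174 ± 48.1 (n = 11), with SDs that overlap those of the 2 classes before. The lowest alveolar macrophage values of Abca1, 89.4 and 103 CPM, came from p21Het_2 and p21mTertCD_1, the libraries with the most lipid-associated macrophage-like cells. The other 9 ranged from 127 to 232. p21Het_2 and p21mTertCD_1 also had the fewest alveolar macrophage-like cells. In this class p21Het_2 was lowest for Abcg1, Lipa, Cd36 and Lpl too, and p21mTertCD_1 for Fabp1. Pparg, Fabp4, Fabp5 and Plin2 were lowest in other libraries. A link with the lipid-associated macrophage-like cells was not tested.

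Between the macrophage classes of 1 library the genes moved apart in both directions. In all 5 libraries with both classes, lipid-associated macrophage-like cells held more Fabp5, Fabp4, Cd36, Plin2, Lipa and Pparg, and less Abca1, Fabp1, Lpl and Abcg1. How many of all genes keep 1 sign over these 5 libraries is not given here, so this is a description. The most negative differences were those of Abca1 and Fabp1. Abca1 was 17.1, 11.9, 79.7, 39.6 and 7.02 CPM in lipid-associated cells of p21Het_1, p21Het_2, p21mTert_1, p21mTert_3 and p21mTertCD_1. In the same libraries alveolar macrophage-like cells held 174, 89.4, 216, 199 and 103 CPM. The mean difference on the log2(CPM + 1) scale was -2.70 ± 0.88 for Abca1 (SD, n = 5 libraries). Fabp1 differed by -2.48 ± 0.10, with 62.6, 36.0, 56.8, 47.5 and 27.4 CPM in lipid-associated cells. On the other side, Fabp5 differed by 2.25 ± 0.43, with 1748, 1579, 1727, 1376 and 1373 CPM in lipid-associated cells against 443, 265, 518, 200 and 303 in alveolar cells. Fabp4 differed by 1.2998 ± 0.27, Cd36 by 1.09 ± 0.51, Plin2 by 0.68 ± 0.13 and Lipa by 0.56 ± 0.21. Lpl and Abcg1 differed by -0.72 ± 0.24 and -0.58 ± 0.07. Pparg differed least, by 0.11 ± 0.08. A 2-sided exact sign-flip test over 5 libraries cannot go below p = 0.0625, the value reached by all 10 genes, so none can pass 0.05. Over the 3 libraries other than p21Het_2 and p21mTertCD_1, Fabp1 differed by -2.43 ± 0.08 and Abca1 by -2.34 ± 0.93, and each of the 10 genes kept its direction. Another assignment of the cells did not leave 5 libraries for this comparison. A gate on marker UMIs per cell put 1105 of the 1281 lipid-associated macrophage-like cells with the alveolar macrophages. It left 1 library, p21mTertCD_1, with at least 20 lipid-associated cells, 35 in all. In those, Fabp4 (160 CPM), Plin2 (1000.2), Lipa (440) and Pparg (65.4) were below the means of the gated alveolar macrophages over 11 libraries (471, 1069, 666 and 166). Fabp5 (1951 against 735) and Cd36 (422 against 389) were above them, and Lpl, Abcg1, Abca1 and Fabp1 below. As 1 library is set against means over 11, class and library are mixed here. The gated alveolar class held 2346 cells, among them those 1105 lipid-associated macrophage-like cells. These values therefore do not set 1 class against the other. Directions within libraries were not tested with the gate.

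**Figure D2:**
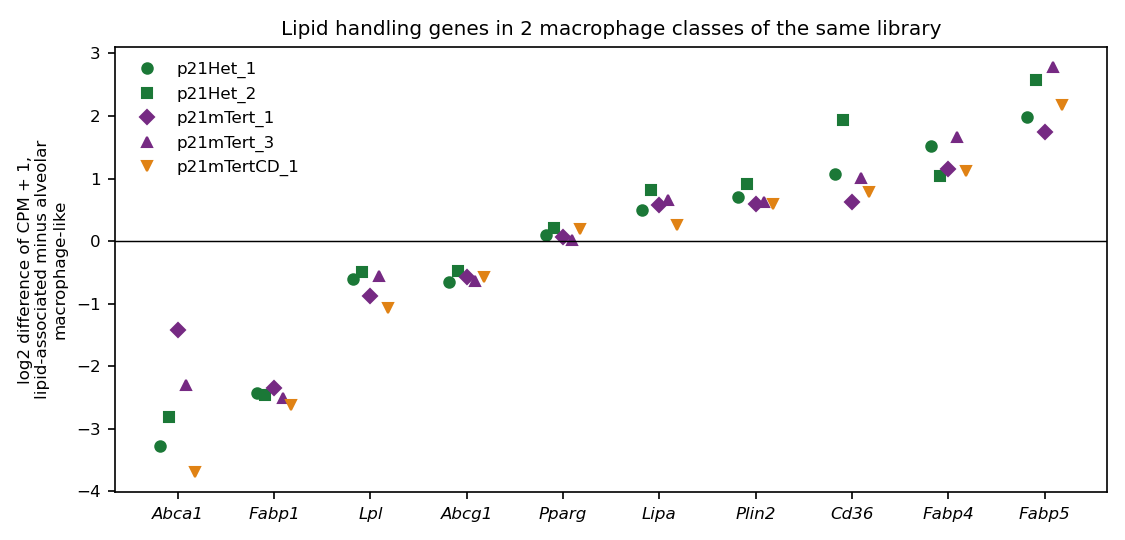
Difference of log2(CPM + 1) between lipid-associated and alveolar macrophage-like cells of the same library (y axis) for the 10 genes, 1 symbol per library. All 5 libraries lie below 0 for Abca1, Fabp1, Lpl and Abcg1 and above 0 for the other 6 genes, with Pparg nearest to 0.

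Alveolar macrophage-like and AT2-like cells, the consumers and the makers of surfactant, differed in all 10 genes (2-sided exact sign-flip tests over 11 libraries). Macrophages held more of 8 genes, by 2.69 ± 0.27 on the log2(CPM + 1) scale for Plin2 up to 9.34 ± 0.56 for Abcg1 (SD, n = 11). AT2-like cells held 1.39 CPM of Abcg1, 1.20 of Lipa and 0.122 of Fabp1. The size and order of the largest differences therefore depend on the 1 added to each CPM. AT2-like cells held more Fabp5, by 2.48 ± 0.47, and more Cd36, by 1.29 ± 0.28. Each of the 10 differences had the same sign in 11 of 11 libraries and an exact p of 0.000977, the smallest that 11 libraries can give (0.00172 adjusted over the 30 tests of 3 class pairs). Both classes differ widely: by the same test, 85.4% of 10370 genes with at least 5 CPM in either class differed at an adjusted p under 0.05. The median size of difference was 5.70 over the 10 genes and 0.97 over all these genes. The 10 genes were chosen as lipid genes of alveolar cells, with earlier results of these data known. Pparg, Fabp1, Fabp4, Abcg1 and Lipa reached 5 CPM in alveolar macrophage-like cells only. The larger median is therefore a description and not a test.

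Against interstitial macrophage-like cells, which lie in the tissue between alveoli and blood vessels, 8 genes were higher in alveolar macrophage-like cells, from Fabp1 (6.93 ± 1.05, 11 of 11 libraries) to Fabp5 (1.53 ± 1.40, 10 of 11). Abca1 went the other way, lower by 0.53 ± 0.41 in 9 of 11 libraries (exact sign-flip p = 0.00391, adjusted p = 0.00558). Cd36 did not pass the test, with a difference of 0.20 ± 0.86 and an exact p of 0.473. Of 9780 genes tested the same way, 71.7% differed, and the median difference was 2.83 over the 10 genes against 0.59 over all. The limit on the choice of the 10 genes holds here too, and these medians are a description.

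Interstitial macrophage-like cells were made of 2 clusters that hold Abca1 and Cd36 unequally. Cluster 41 (454 cells, led by Ccl8, Cxcl13, Cd163 and Folr2) held 469 ± 107 CPM of Abca1 and 552 ± 229 of Cd36 (n = 11). Cluster 23 (894 cells, led by C1qb, C1qa and Ms4a7) held 103 ± 32.0 and 90.4 ± 52.8 (n = 11). Both genes were higher in cluster 41 in 11 of 11 libraries. The share of cluster 41 ran from 23.9% to 66.7% of the class between libraries, so class sums of Abca1 and Cd36 also carry that mix. Levels within cluster 41 also varied: Cd36 ranged from 165 CPM in p21mTertCD_1 and 219 in p21Het_2 to 849 in p21mTert_5. Cluster 41 was assigned to the class in the second naming pass, with 1 marker among its 10 leading genes and 10 of 10 markers at least 2 times as high as elsewhere. The clusters were formed on these cells, without the 10 genes, and the contrast is a description.

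**Figure D3:**
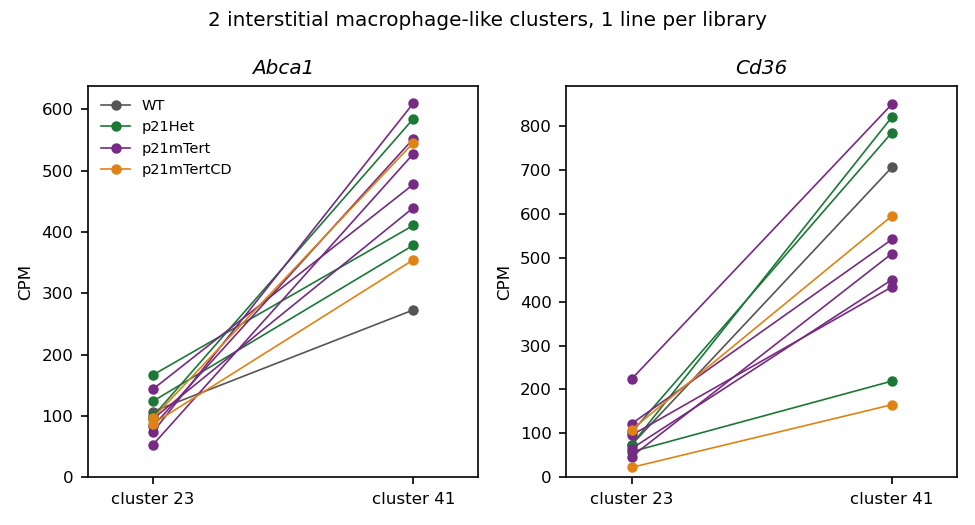
CPM of Abca1 (left) and Cd36 (right) in the 2 interstitial macrophage-like clusters, with 1 line per library, coloured by group. Every line rises from cluster 23 to cluster 41, to between 273 and 610 CPM of Abca1.

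The 2 capillary classes shared Cd36 and parted on Lpl. General capillary-like cells held 547 ± 204 CPM of Lpl against 16.5 ± 11.6 in aerocyte-like cells (n = 10 libraries, without p21Het_3, which had 12 aCap-like cells). The difference was 5.13 ± 0.78 on the log2(CPM + 1) scale, with gCap-like cells higher in 10 of 10 (exact sign-flip p = 0.00195, the smallest possible, adjusted p = 0.00308). Abcg1 ran the other way, at 22.5 ± 6.83 against 94.2 ± 23.8 CPM, lower in gCap-like cells by 2.04 ± 0.52 in 10 of 10 libraries with the same exact p. Cd36 was 2373 ± 222 against 2410 ± 244 CPM, a difference of -0.02 ± 0.11 (exact p = 0.523). The other 7 genes did not pass after adjustment. With cells assigned by a marker gate 6 of the 10 genes passed, adding Pparg, Fabp4 and Fabp5, higher in gCap-like cells, and Cd36, at a difference of -0.10 (exact sign-flip, adjusted p = 0.0178). No share of all genes is given for the gate. In the classes from clusters, 40.3% of 10246 genes differed by the same test. Of the 10 genes, 8 had at least 5 CPM in either class, and 2 of these differed. The median difference was 0.40 over all genes and 0.67 over these 8, with the limit on their choice given above. Gpihbp1, the protein that anchors lipoprotein lipase on capillary endothelium, is a marker that named the gCap-like class, and its levels of 1569 ± 206 CPM there (n = 11) and 86.2 in aCap-like cells are a description only.

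Within AT2-like cells Fabp5 varied between clusters and between libraries. In order of replicate, the p21Het libraries held 1974, 2526 and 1479 CPM, the p21mTert libraries 2711, 1320, 1477, 2002 and 1395, the p21mTertCD libraries 2485 and 1326, and the WT library 1658. The groups overlapped. Cluster 8, the largest with 1919 cells, held 1476 ± 263 CPM (n = 11). Cluster 12 (1289 cells of low depth, 0.473 of the median UMI count of their libraries) held 3192 ± 997 (n = 11). Cluster 33 (606 cells, led by Itih4, Pigr, Chil1 and Fgg) held 2860 ± 305 (n = 6). Cd36 took the reverse order, with 809 ± 82.1 CPM in cluster 8, 275 ± 86.7 in cluster 12 and 380 ± 48.8 in cluster 33. Cluster 33 made up 22.1%, 39.0%, 20.5%, 11.8% and 36.4% of AT2-like cells in p21Het_1, p21Het_2, p21mTert_1, p21mTert_3 and p21mTertCD_1. These are the 5 libraries with at least 20 lipid-associated macrophage-like cells. In the other 6 libraries cluster 33 made up at most 6.63%. The samples with both populations come from 3 groups, and a link between them was not tested.

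**Figure D4:**
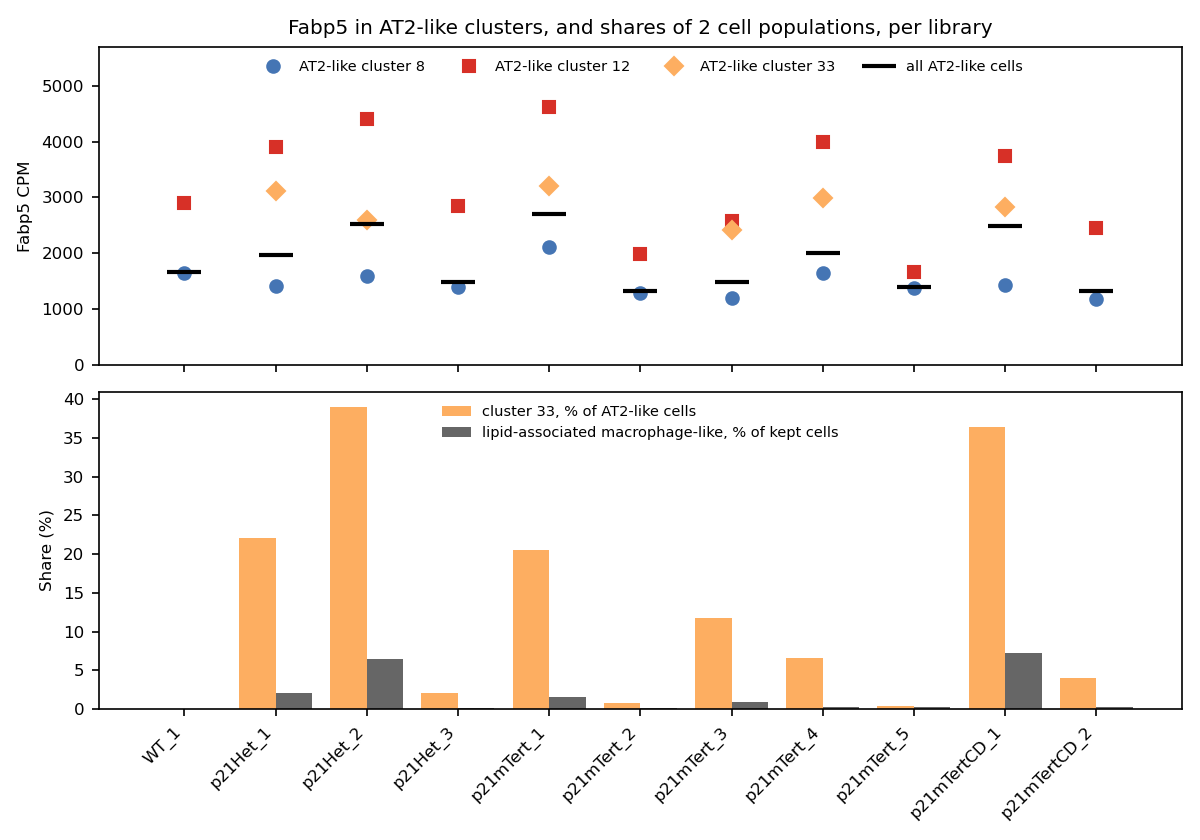
Upper panel: Fabp5 in CPM per library for the 3 AT2-like clusters (symbols, at least 20 cells) and for all AT2-like cells (bar). Lower panel: the share of cluster 33 among AT2-like cells and of lipid-associated macrophage-like cells among kept cells, in percent, with the 5 libraries of high shares in both.

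Genotype was tested within 6 classes with edgeR's quasi-likelihood test on the UMIs summed per library. Of the 10 genes, 10 passed the filter on low counts in alveolar macrophage-like, 9 in AT2-like, 9 in interstitial macrophage-like, 8 in gCap-like, 5 in aCap-like and 7 in fibroblast-like cells. No gene passed an adjusted p of 0.05 in any of the 3 contrasts, 0 of 144 tests, and the smallest adjusted p was 0.286. DESeq2 called 1. At an unadjusted p under 0.05 by edgeR there were 11, or 7.64% of the tests, against 4.78% over all genes and comparisons. Few genes of any kind were called by edgeR. In the order p21mTert minus p21Het, then minus p21mTertCD, then p21mTertCD minus p21Het, the called shares of all genes were 0.0309%, 0.0618% and 0% in alveolar macrophage-like cells. They were 0.062%, 0.0177% and 0% in AT2-like, 0%, 0.0225% and 0.0113% in interstitial macrophage-like, and 0.0106%, 0.264% and 0.137% in gCap-like cells. In aCap-like cells they were 0%, 0.0172% and 0.0172%, and in fibroblast-like cells 0% in each.

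Lpl in fibroblast-like cells came closest. The p21Het libraries held 104, 189 and 291 CPM, the p21mTert libraries 70.5, 65.9, 79.4, 53.4 and 100, the p21mTertCD libraries 111 and 98.4, and WT 79.9. All 5 p21mTert values lay below the 3 p21Het values, while p21mTertCD lay between and overlapped both ranges. The log2 fold change for p21mTert minus p21Het was -1.39 (SE 0.26), with an adjusted p of 0.286 in edgeR's quasi-likelihood test. For p21mTertCD minus p21Het it was -0.85 (SE 0.33, adjusted p = 1.00 by edgeR). The p21mTert contrast passed under 5 of 20 alternatives (DESeq2 with adjusted p = 0.00636, no filter on low counts, the later deposit alone with 0.0462, without p21Het_1 with 0.00776, and doublets kept with 0.0152). Shares of all genes called are not set beside these 5 passes. Over all 20 alternatives the fold change stayed between -1.71 and -1.07. Without p21Het_2, which stood apart, it was -1.35 (adjusted p = 0.562), and without p21Het_3 -1.07 (adjusted p = 0.5264). Within the main fibroblast cluster alone, p21Het libraries held 115, 180 and 241 CPM, p21mTert libraries 48.3 to 68.6, p21mTertCD libraries 137 and 94.2 and WT 51.8. In a smaller fibroblast cluster, led by Dcn and Clec3b, the groups overlapped, with 18.0, 270.3 and 378 CPM in p21Het, 116 to 255 in p21mTert and 39.5 and 154 in p21mTertCD, from 10 to 28 cells per library. That cluster made up 33.3% of the fibroblast-like cells of p21Het_3, the library with the highest class value, and 5.26% to 18.5% in the other libraries. The part of this mix in the class values was not tested. Alveolar macrophage markers, 11 genes whose summed level marks macrophage RNA, reached 44.6 to 380 CPM in the fibroblast sums of p21Het, 26.4 to 166 in p21mTert and 47.2 to 406 in p21mTertCD, and 2 to 7 of them were at 0. Their part in the Lpl values was not tested.

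The other differences with an unadjusted p under 0.05 did not pass the adjustment either (edgeR, adjusted p of 0.663 to 1.00). For p21mTert minus p21Het, Plin2 in interstitial macrophage-like cells had a log2 fold change of -0.47 (SE 0.18; 218 ± 34.0 against 308 ± 45.01 CPM), and -0.27 without p21Het_2. In the same contrast, p21mTert minus p21Het, Abcg1 had -0.60 (SE 0.21) in aCap-like and -0.62 (SE 0.24) in gCap-like cells, and Abca1 -0.62 (SE 0.26) in gCap-like cells. Without p21Het_2 these were -0.71, -0.39 and -0.12, and Abcg1 in aCap-like cells was -0.16 with doublets kept. Summed alveolar macrophage markers (11 genes) reached 49.4 to 804 CPM in the gCap-like sums of p21Het, 36.7 to 273 in p21mTert and 78.4 to 792 in p21mTertCD, with 2 to 5 of them at 0. In the aCap-like sums they reached 107 and 592 CPM in p21Het, 30.8 to 201 in p21mTert and 65.7 and 763 in p21mTertCD, with 3 to 7 at 0. The highest values came from p21Het_2 and p21mTertCD_1, and their part in these results was not tested. Between p21mTert and p21mTertCD the fold changes were -0.42 (SE 0.18) for Fabp4 in alveolar macrophage-like, -0.72 (SE 0.34) for Lpl in gCap-like and -0.9987 (SE 0.38) for Lipa in aCap-like cells. Fabp4 was at -0.12 without p21mTertCD_2 and -0.64 without p21mTertCD_1. Lpl was at -0.24 without p21mTertCD_1, -1.08 without p21mTertCD_2 and -0.03 with a replicate block, and Lipa at -0.62 with doublets kept. For p21mTertCD minus p21Het, Pparg in interstitial macrophage-like cells had 0.96 (SE 0.35), 0.11 with cells assigned by a marker gate and 0.66 without p21Het_3. Pparg was 15.8 CPM in cluster 23 and 4.57 in cluster 41, whose mix varied between libraries. Cd36 in fibroblast-like cells had -1.32 (SE 0.60) in the same contrast, and is named here after its value was seen. Its level there was 12.3 ± 6.48 CPM (n = 11), 23.8 with doublets kept, against 2366 in gCap-like cells. Summed gCap markers (13 genes) reached 614 to 731 CPM in the fibroblast-like sums of p21Het and 542.5 to 646 in p21mTertCD. Their part in the Cd36 values was not tested. Contrasts that share a group share its libraries. Plin2 in interstitial macrophage-like cells had -0.48 (SE 0.22) for p21mTertCD minus p21Het, with an unadjusted p above 0.05 (edgeR). The median log2 fold change of the genes tested for p21mTert minus p21Het was 0.02 in alveolar macrophage-like, -0.19 in AT2-like, 0.12 in interstitial macrophage-like, -0.32 in gCap-like, -0.35 in aCap-like and -0.30 in fibroblast-like cells. The medians over all genes lay between -0.01 and 0.00.

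Between p21mTert and p21Het, library values did not overlap for 3 genes, all lower in p21mTert: Plin2 in interstitial macrophage-like, Abcg1 in aCap-like and Lpl in fibroblast-like cells. The aCap-like comparison has 2 p21Het libraries, among them p21Het_2 with the alveolar macrophage markers given above. Each was 1 gene of the 9, 5 and 7 tested, and the share of all genes without overlap was 2.52%, 7.64% and 2.94%. In alveolar macrophage-like, AT2-like and gCap-like cells none of the 10 genes stood without overlap, against 3%, 2.97% and 2.05% of all genes. For p21mTertCD minus p21Het, Plin2 was lower without overlap in AT2-like, alveolar and interstitial macrophage-like cells. There 1508 of 11287, 1584 of 9713 and 1458 of 8885 genes did not overlap. Pparg was higher in the last, and in aCap-like cells Cd36 was lower and Lipa higher (1680 of 5802). For p21mTert minus p21mTertCD, Abca1 was lower in gCap-like (1008 of 9472) and Abcg1 and Lipa in aCap-like cells (784 of 5802). Cd36 was higher in fibroblast-like cells (820 of 9747). Summed over all kept cells, no gene differed after adjustment over 30 exact permutation tests (2-sided). The smallest p was 0.0357 for Plin2, 143 ± 23.7 CPM in p21mTert (n = 5) against 248 ± 97.4 in p21Het (n = 3), with an adjusted p of 0.714. Such sums move with the number of macrophages in a library as well as with RNA per cell, which cannot be told apart in them. Summed without both airspace macrophage classes, Plin2 was 77.2 ± 7.43 CPM in p21mTert (n = 5) and 111 ± 6.52 in p21Het (n = 3), with an exact permutation p of 0.0179, the smallest this design can give, and an adjusted p of 0.536. In this sum, chosen after seeing the data, p21mTertCD held 82.0 ± 23.5 CPM (n = 2) and WT 110. The share of all genes without overlap in this sum is not given here.

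**Figure D5:**
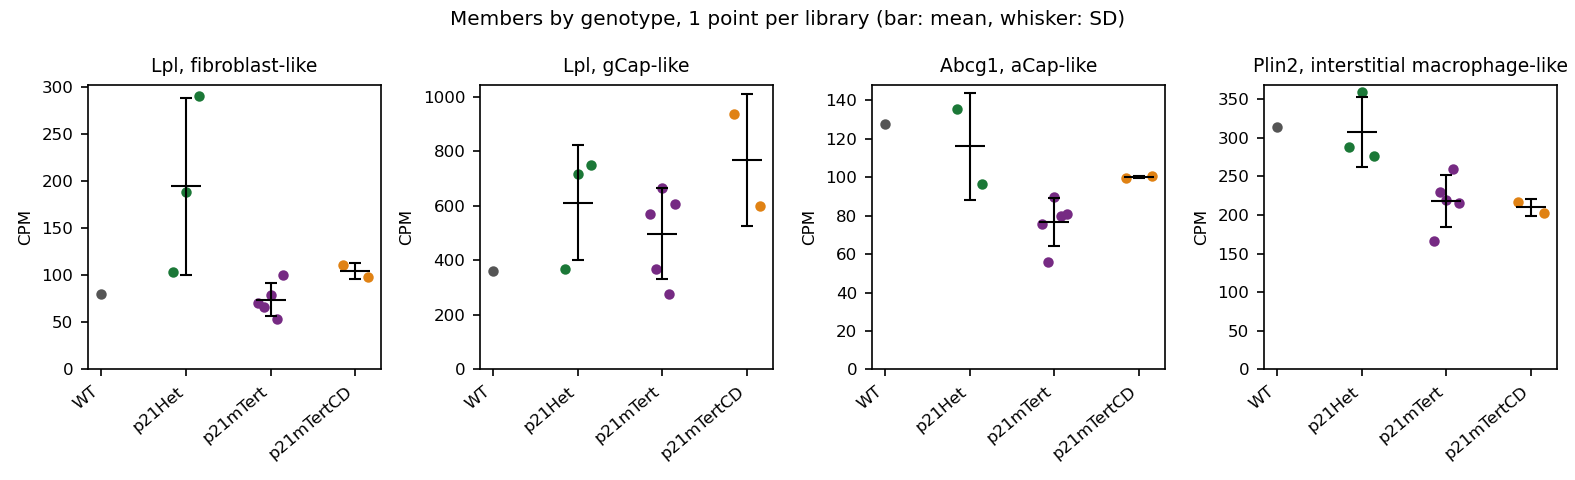
CPM per library by group for Lpl in fibroblast-like and gCap-like cells, Abcg1 in aCap-like and Plin2 in interstitial macrophage-like cells, with the mean and SD where a group has more than 1 library. The 5 p21mTert points of fibroblast Lpl, 53.4 to 100 CPM, lie below the 3 p21Het points.

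A wider list of 68 lipid genes gives the setting. Over the 6 tested classes and the lipid-associated macrophages, 19 of the 68 were highest in AT2-like cells, 17 in lipid-associated and 11 in alveolar macrophage-like cells, 7 in fibroblast-like, 6 in gCap-like, 4 in aCap-like and 4 in interstitial macrophage-like cells. Of 14 synthesis genes 11 were highest in AT2-like cells, led by the desaturase Scd1 at 8391 ± 2801 CPM (n = 11), and the fatty acid synthase Fasn stood there at 968 ± 216. Npc2 (cholesterol transfer in lysosomes) and Lpcat1 (lung phosphatidylcholine remodelling) were the other leading genes of that class, at 4859 ± 1271 and 1259 ± 136. Of the droplet and lipolysis genes, 4 of 14 were highest in alveolar and 4 in lipid-associated macrophage-like cells. Cidec, a droplet fusion protein, held 297 CPM in alveolar macrophage-like cells, and Ch25h, which makes an oxysterol, 325 in lipid-associated cells against 92.8 in alveolar cells. Fasn, Cidec and Ch25h are named after their values were seen. The wider genes took part in the clustering, so their levels are a description. Leading genes of the list in alveolar macrophage-like cells were Lrp1 (513 ± 52.9), Npc2 (483 ± 65.4) and Marco (370 ± 166), a scavenger receptor and marker of the class, and in gCap-like cells Gpihbp1, Hilpda (882 ± 344) and Npc2 (194 ± 21.2).

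By genotype, 1 gene of the wider list passed (edgeR, adjusted p under 0.05 over all genes): Apoe, an apolipoprotein that accepts exported cholesterol, between p21mTert and p21mTertCD in the alveolar macrophage-like class. Of the 68 genes, 61 passed the filter on low counts in that class and 34 to 59 in the other classes. Of all 9713 genes tested in that class and contrast, 0.0618% were called. The fold change of Apoe was -2.41 on the log2 scale for p21mTert minus p21mTertCD (edgeR, SE 0.35, adjusted p = 0.00833). It was 44.7, 31.7, 7.80, 22.7 and 27.3 CPM in p21mTert, 126 and 152 in p21mTertCD, and 116, 54.0 and 32.9 in p21Het. Apoe stood at 11468 CPM in interstitial macrophage-like cells, and the 9 other markers of those cells summed to 26.8 to 36.2 CPM in the alveolar macrophage-like sums of p21mTert, 39.5 to 59.2 in p21mTertCD and 37.1 to 41.8 in p21Het. Their part in the Apoe values was not tested. Among alternatives with more than 1 library in both groups, the call held in all but those named below. The fits without p21mTertCD_1 (-2.46) and without p21mTertCD_2 (-2.34) leave 1 library in that group. The spread then comes from the other groups, so only the fold changes of these fits are read. The call was lost at a like fold change with DESeq2 (-2.41, adjusted p = 0.0616). It was lost at a smaller one with cells assigned by a marker gate (-1.47, adjusted p = 0.823) and with lipid-associated cells counted in (-1.73, adjusted p = 0.840).

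Across the 29 named classes, the gene whose mean level followed each of the 10 most closely was given by Pearson's r of log2(mean CPM + 1), as a description over classes that share libraries and depth. Fabp1 was followed most closely by Cidec (r = 0.94), with Htr2c and Trim29 next (0.93 each). Plin2 had Atp6v1b2, Hexa and Idh1 (0.88, 0.85 and 0.85), and Lipa had Psap, Pla2g15 and Nagpa (0.84, 0.83 and 0.82), of which Hexa, Psap and Pla2g15 encode lysosomal proteins. Abcg1 had Olr1, Naip2 and Rims3 (0.85, 0.82 and 0.80), Abca1 had Tgfbr2, Ifi27 and R3hcc1l (0.82, 0.75 and 0.74), and Lpl had Kctd12b, Hebp1 and Rxra (0.81, 0.79 and 0.78). Pparg had Rims3, the LXR gene Nr1h3 and Wdr7 (0.79, 0.73 and 0.71), and Fabp4 had Ch25h, Nr1h3 and Kctd12b (0.76, 0.70 and 0.68). Cd36 had the genes Smagp, Tbkbp1 and Tmeff1 (0.76 each), all highest in capillary-like cells. Fabp5 had the loosest fits, with Atp6v1b2, Chp1 and Vdr (0.71, 0.69 and 0.65).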

How the data were processed

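Single-cell 3′ libraries of mouse lung were deposited as 1 matrix per library. Per the labels' protocols and the file headers, the authors mapped reads to mm10 with Cell Ranger, and the deposited values are raw UMI counts per gene and barcode. The cell filter and scran normalization described by the labels are not applied in them, and the lowest barcode totals are 500 to 501 UMIs. Depth was 42038434 to 85988955 UMIs per library.

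Kept barcodes had 1000 to 30000 UMIs, of which mitochondrial genes gave no more than 14%, and the highest Scrublet scores were removed at a rate of 0.8% per 1000 barcodes (4.55% to 8.42% per library). Scrublet's own thresholds marked 0.0117% to 2.69%. Cells were clustered with scanpy 1.11.5 (2000 variable genes without the 10 genes described, 40 components, 20 neighbours, Leiden resolution 2) into 72 clusters. Of 55 named clusters, 40 had at least 3 markers of a class among their 10 leading genes. The other 15 were named in a second pass, from at least 3 markers found in 25% of the cells at 2 times the level elsewhere, with 1 or more among the leading genes and no class with more there. This gave 29 classes and left 5267 cells unnamed. UMIs were summed per class and library. Genotype was tested with edgeR 4.0.16 (quasi-likelihood, TMM, filterByExpr, all groups in 1 fit, Benjamini-Hochberg over all genes), with DESeq2 1.42.0 as an alternative. Classes were compared by 2-sided exact sign-flip tests on log2(CPM + 1), and all-cells sums by exact permutation tests. The scripts were tested on simulated data.

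Each of the 10 genes was named, with fold changes for up to 2 genes per class of smallest unadjusted p under 0.05 for p21mTert minus p21Het and 1 for each other contrast. From the wider list every called gene and the 3 highest of 3 classes were named, and 3 genes of like pattern per gene among those with at least 20 CPM in a class. The genes and lists were chosen with earlier results of these data known. Gene positions are from GENCODE M21 (GRCm38, the same assembly as mm10). Other settings were replicate block, deposit term, later deposit only, no filter on low counts, each library left out, a minimum of 2000 UMIs, pseudocounts of 0.1 and 5, doublets kept and a marker gate per cell.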

Additional observations from a re-analysis of the deposited data

Results flagged for a closer look

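In 6 of 58 groups of 5 libraries, 1 p21mTert library lay far from the other 4 (gap over range above Dixon's critical value of 0.71). Chance alone flags about 1 group in 20. p21mTert_1, which belongs to the first deposit and has an age label of 20 months, accounts for 4 of them. In its AT2-like cells Fabp4 was 7.75 CPM (2.29 to 3.399 in the others) and Lipa was 2.94 CPM (0.287 to 0.816). Summed alveolar macrophage markers (11 genes) were also highest there, at 116 CPM against 35.2 to 93.7 in the other p21mTert libraries. Their part in these values of p21mTert_1 was not tested. In its alveolar macrophage-like cells Fabp4 was 438 CPM (235 to 281 in the others). Over all its cells Cd36 was lowest, at 223 CPM against 314 to 351. Lipa in interstitial macrophage-like cells was highest in p21mTert_5, at 322 CPM against 158 to 195. Fabp5 in gCap-like cells was lowest in p21mTert_2, at 18.8 CPM against 39.6 to 44.6.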

How the results depend on the processing

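Of 570 recomputed class differences 558 kept their direction and side of the threshold, 10 newly passed, 1 no longer passed and 1 reversed: Cd36 in gCap-like minus aCap-like cells, near 0 throughout, was 0.0146 without the gCap-like cluster of low UMI counts. Of 140 recomputed class means of CPM, 32 moved by more than the SD between libraries (doublets kept and a marker gate per cell were the settings tried). With the gate, Fabp5 in alveolar macrophage-like cells was 735 CPM, and in the 35 lipid-associated cells of 1 library Pparg was 65.4, Fabp4 160, Plin2 1000.2, Lipa 440 and Abcg1 321 CPM. The gated alveolar class took in most of the lipid-associated macrophage-like cells. Genes of the 10 that differ between gCap-like and aCap-like cells numbered 6 with a marker gate per cell, against 2. For the gate no share of all genes is given. Of 363 counts of the 10 genes called by genotype, 355 stayed at 0. With no filter on low counts there were 2 in interstitial macrophage-like cells for p21mTert minus p21mTertCD (Fabp4 and Lpl; 0.596% of all genes called), 1 there for p21mTertCD minus p21Het (Fabp4; 0.438%), 1 in gCap-like cells for p21mTert minus p21mTertCD (Lpl; 0.84%) and 1 in fibroblast-like cells for p21mTert minus p21Het (Lpl; 0.875%). The last was also 1 with DESeq2, in the later deposit alone and with doublets kept, and 0 to 1 with a library left out (1 without p21Het_1). For these settings no share of all genes called is given, so the counts are not read as particular to Lpl.

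Calls in the wider list, 1 between p21mTert and p21mTertCD in alveolar macrophage-like cells and 0 elsewhere, moved in 28 of 363. In alveolar macrophage-like cells, in the order p21mTert minus p21Het, then minus p21mTertCD, then p21mTertCD minus p21Het, they were 3, 6 and 5 with no filter (0.482%, 0.569% and 0.29% of all genes called) and 1, 2 and 2 in the later deposit alone (0.408%, 0.225% and 0.0204%). Without these settings the shares were 0.0309%, 0.0618% and 0%. A deposit term gave 2 and 1 for the last 2 contrasts. The marker gate and counting in lipid-associated cells gave 0 for p21mTert minus p21mTertCD, and leaving out a library up to 2 (without p21mTert_5). Fits that leave 1 library in a compared group are not read. With no filter, p21mTert minus p21Het had 2 calls in each of interstitial macrophage-like, gCap-like, aCap-like and fibroblast-like cells, p21mTert minus p21mTertCD had 1 in interstitial macrophage-like and 1 in aCap-like cells, and p21mTertCD minus p21Het 1 in fibroblast-like cells. In aCap-like cells, p21mTert minus p21Het had 1 with a deposit term, and p21mTert minus p21mTertCD had 1 with DESeq2. There p21Het and p21mTertCD had 2 libraries each. Leaving out 1 of them leaves a group of 1 library, as does the later deposit alone for p21Het, and those counts are not read. Where no share of all genes called is given, a count is not read as particular to lipid genes. The cause of these moves was not tested.

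Titles of different groups share the numbers 2 and 3 only, and these did not pair the libraries (r of -0.448 to 0.197). The first deposit carries no numbers and was not checked for pairing. With the replicate block, wider-list calls in alveolar macrophage-like cells were 1, 2 and 1 in the order above, with the same limit on their reading. Counting in lipid-associated cells, leaving out the low-UMI gCap-like cluster and summing all cells without both airspace macrophage classes were chosen after seeing the data.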

Other observations

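Several levels lay outside the alveolar classes. B-like cells, abundant in these libraries, held 62.0 ± 4.83 CPM of Abca1 (SD, n = 11) and gave 18.4% of its UMIs. Non-classical monocyte-like cells were among the 4 highest classes for Pparg, Fabp4, Plin2, Abcg1 and Lipa, and gave 15.9% of Fabp4 UMIs. Mural-like cells held 116 ± 48.7 CPM of Fabp4 (n = 7), and neutrophil-like cells 148 ± 61.3 CPM of Fabp5 and 73.8 ± 10.9 CPM of Abcg1 (n = 11).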
